A study of Mus musculus with 9 samples.

Results

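Transcripts of 36 macrophage and myeloid genes were followed in the hearts of adult mice whose atrial muscle lacks the nuclear receptor COUP-TFII. The genes were taken as a fixed list by name, chosen with earlier results of these data known. Each was represented by its probe set with the highest mean over all arrays. All 36 were measured, among 18193 genes on the array. They comprise 5 genes of macrophage identity, 6 markers of resident macrophages, the monocyte receptor Ccr2, 4 chemokines, 3 C1q chains, 5 Fc receptors and their adaptors, 5 lysosomal or innate genes, 3 genes of leukocytes in general or of antigen presentation, and 4 genes of macrophage activation.

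Total RNA of 3 groups of 3 samples from C57BL/6 mice aged 2 months was labelled from its 3' end and read on Affymetrix arrays. Mutant right atria carried Myh6-cre with COUP-TFIIflox/flox, in which Cre under the Myh6 promoter acts in cardiomyocytes. Control right atria and control ventricles carried COUP-TFIIflox/flox without Cre. An effect of Cre alone and the loss of COUP-TFII therefore cannot be told apart. Macrophages are not known to express Myh6. The labels call the replicates biological without saying whether animals were pooled or whether atrium and ventricle shared an animal. Whole tissue was measured, so fewer cells of a type and less RNA per cell cannot be told apart.

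The heart holds macrophages between its muscle cells. Some settle before birth and renew themselves locally, and are known for Cd163, Mrc1, Folr2 and Lyve1 and for little Ccr2. Others derive from blood monocytes, which enter tissue through the receptor Ccr2 along gradients of the chemokines Ccl2 and Ccl7. Both kinds depend on the growth factor receptor Csf1r and on the transcription factor PU.1, the product of Spi1, and both clear dead cells and debris with the help of Fc receptors, complement C1q and lysosomal enzymes.

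PU.1 binds purine-rich DNA with the core GAGGAA, so the promoters of the members that were higher in mutant atria are shown with these letters. RefSeq promoters on build GRCm38.p6 were at hand for 26 of the 36 genes. The letters occurred on either strand in the 250 bases before the start of 14 of these 26 genes (53.85%), against 25.85% of all genes with a promoter. Among the 12 with a promoter that were higher in mutant than in control atria the number was 8 (66.67%), and among the other 14 it was 6 (42.86%). A match is a description of the letters and not evidence of binding, and no match speaks only for this window. The 100 bases before the start follow for 5 higher members that hold the motif there and 2 that do not, read 5′ to 3′ on the strand of the gene, with GAGGAA, or its other strand TTCCTC, in capitals. Windows of this length hold the letters in 9.823% of all promoters.
C1qb, chr4:136886201-136886300, minus strand: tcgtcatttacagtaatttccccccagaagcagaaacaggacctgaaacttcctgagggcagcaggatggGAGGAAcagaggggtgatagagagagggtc
Laptm5, chr4:130913216-130913315, plus strand: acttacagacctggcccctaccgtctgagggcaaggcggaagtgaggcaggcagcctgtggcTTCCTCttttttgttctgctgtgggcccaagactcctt
Mrc1, chr2:14229314-14229413, plus strand: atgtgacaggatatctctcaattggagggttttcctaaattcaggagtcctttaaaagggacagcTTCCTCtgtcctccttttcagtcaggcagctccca
Pf4, chr5:90772335-90772434, plus strand: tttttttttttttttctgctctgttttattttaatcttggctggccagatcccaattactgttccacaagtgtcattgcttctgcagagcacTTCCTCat
Aif1, chr17:35176053-35176152, minus strand: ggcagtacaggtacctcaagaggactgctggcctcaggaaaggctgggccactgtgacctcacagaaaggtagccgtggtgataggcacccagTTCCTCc
Fcer1g, chr1:171234350-171234449, minus strand: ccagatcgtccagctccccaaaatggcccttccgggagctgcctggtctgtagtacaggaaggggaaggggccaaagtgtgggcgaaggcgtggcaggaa
Gpnmb, chr6:49036418-49036517, plus strand: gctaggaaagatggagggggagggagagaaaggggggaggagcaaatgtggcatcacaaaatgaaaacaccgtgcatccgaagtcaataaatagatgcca

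Several features of the arrays bear on the results. The level of Nr2f2, which encodes COUP-TFII, was 6.82, 6.62 and 6.82 in mutant atria and 7.53, 7.66 and 7.29 in control atria on the log2 scale, so the deleted gene was lower but still detected in the whole tissue. Control atria had higher levels of hepatocyte and mesothelial genes, and the source of these transcripts was not tested. There 15 hepatocyte genes summed to an intensity of 4024 to 19277, against 932 to 1026 in mutants and 611 to 684 in ventricles, with albumin (Alb) at 12.25, 10.81 and 8.73 in control replicates 1, 2 and 3. The sum over 12 mesothelial genes ran from 12664 to 14919 in these atria, from 4976 to 5388 in mutants and from 1714 to 1942 in ventricles. The Y-linked gene Eif2s3y was at 3.90 in mutant replicate 1 and 6.35 in control replicate 1, and at 9.53 to 10.05 in the other 4 atria, whereas all ventricles lay near 3.8. Y-linked genes are carried by males only, so replicates 2 and 3 of both kinds of atrium held male tissue. Mutant replicate 1 and the ventricles showed no sign of it. In comparisons with ventricles, chamber and sex can therefore only in part be told apart. The difference between 3' and 5' probe sets of Gapdh, a sign of RNA quality, ran from 0.345 to 0.364 in control atria, from 0.214 to 0.304 in mutants and from 0.153 to 0.227 in ventricles. The part of these differences in the results was not tested, except where a value without the arrays concerned or with a covariate is given.

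Between mutant and control right atria, 15 of the 36 macrophage and myeloid genes passed as higher and 0 as lower at an adjusted p of 0.05 by limma, where 7.76% of all genes were higher and 9.79% lower. At an unadjusted p under 0.05 the counts were 20 higher and 0 lower, where 2882 of all 18193 genes were higher and 3006 lower. The median log2 difference of the 36 was 0.47, against 0.03 over all genes, and 35 of them lay above 0. Changes were modest, and 11 of the 15 exceeded 1.5-fold. The shares of 7.76% and 9.79% are also the background for every list counted below between these atria at the adjusted threshold. For counts at an unadjusted p under 0.05 it is the 2882 higher and 3006 lower of 18193 genes. With each array centred on its median, the calls over all genes became 54.7% higher instead of 44.2%, and 17 members were higher and 0 lower.

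The number of calls varied with the arrays that were included. Without mutant replicate 2, 3 members passed (Cd68, Pf4 and Gpnmb) and the median difference was 0.35. Without mutant replicate 3, 6 passed with a median of 0.46, and without control replicate 1, also 6 with a median of 0.49. Without control replicate 2, 4 passed with a median of 0.44, and without control replicate 3, 8 with a median of 0.49. The share of all genes that were higher, 7.76% with all arrays, also fell. It was 4.29% without mutant replicate 2 and 4.67% without mutant replicate 3. Without control replicate 1, 2 or 3 it was 4.45%, 4.96% and 7.21%. Leaving out control replicates 1 and 2, the atria richest in liver transcripts, left 1 control atrium, so no count of calls is given. The median was then 0.45, 33 members lay above 0, and the median SE of a difference widened from 0.18 to 0.29. With the hepatocyte level as a covariate 0 passed and 1 had an unadjusted p under 0.05, with a median of 0.45 and 31 genes above 0, and the median SE of a difference widened from 0.18 to 0.50. Of all genes, 0.214% were higher with this covariate.

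**Figure D1:**
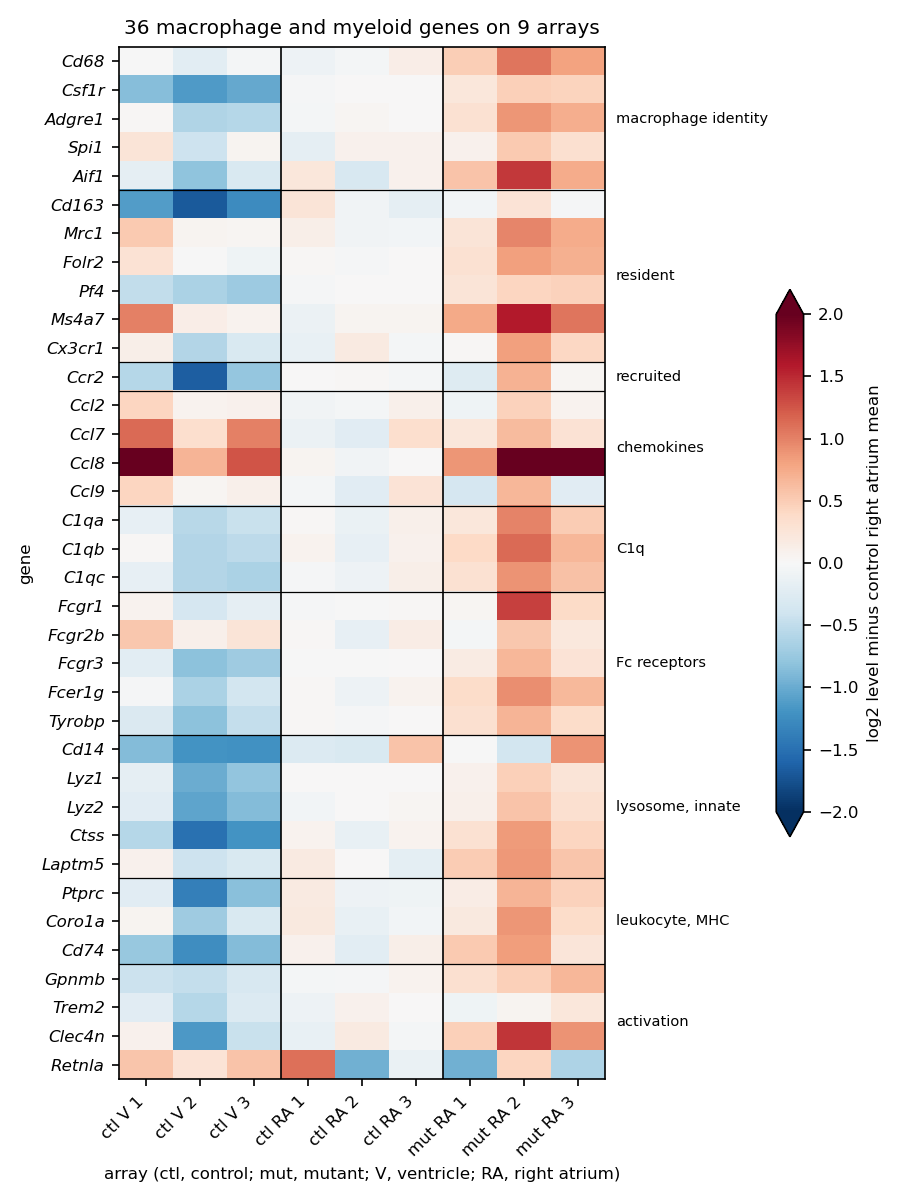
Log2 level of each of the 36 genes (rows, grouped by role) on each of the 9 arrays (columns), as the difference from the mean of the 3 control right atria. Colours run from -2 (blue) to 2 (red) and are capped there, and mutant replicate 2 is the highest mutant array for 32 of the 36 genes while ventricle replicate 1 is the highest ventricle for 34.

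The genes moved together within a group. Mutant replicate 2 was the highest mutant array for 32 of the 36 genes, and mutant replicate 1 the lowest for 34. Relative to the mean of their group the members had a median deviation of 0.29 in mutant replicate 2 and -0.28 in mutant replicate 1, where the median over all genes was within 0.01 of 0 in both. Among ventricles, replicate 1 was the highest for 34 genes and replicate 2 the lowest for 30, with median deviations of 0.29 and -0.23. Mutant replicate 2 also had the lowest mutant level of the atrial myosin light chain Myl7, at 12.67 against 13.90 and 14.12. Ventricle replicate 1 had the highest ventricular level of Myl7, at 8.36 against 6.16 and 6.08. Among control atria no array was highest for more than 18 genes. The measured Y-linked genes summed to an intensity of 39.9, 1645 and 1664 in mutant replicates 1, 2 and 3. Whether sex bears on the spread among mutants was not tested.

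Of the 5 genes of macrophage identity, 4 were higher in mutant atria. Cd68, a glycoprotein of macrophage lysosomes, had log2 levels of 8.09, 8.66 and 8.39 in mutant atria, 7.50, 7.55 and 7.73 in control atria and 7.59, 7.38 and 7.56 in ventricles. The mutant arrays all lay above the other 6, which overlapped. The mutant difference from control atria was 0.79 ± 0.13 (SE, 3 arrays per group), or 1.73-fold (adjusted p = 0.00428), while ventricles differed from control atria by -0.08 ± 0.13 (adjusted p = 0.615). Csf1r, the receptor for the macrophage growth factors Csf1 and Il34, was at 12.19, 12.43 and 12.41 in mutant atria, 11.94, 11.97 and 11.98 in control atria and 11.10, 10.82 and 10.94 in ventricles. Its 3 groups did not overlap, with ventricles lowest and mutant atria highest. It was 1.30-fold higher in mutant than in control atria, by 0.38 ± 0.09 (adjusted p = 0.0188), and lower in ventricles than in control atria by -1.004 ± 0.09 (adjusted p = 1.89e-05). Another Csf1r probe set was at 8.40, 8.73 and 8.67 in ventricles and overlapped control atria, at 8.71, 8.82 and 8.82. Tested on its own it did not pass between these groups (-0.18), but did between mutant and control atria (0.53).

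The other identity genes varied more between replicates. Adgre1, the adhesion receptor known as F4/80, read 8.92, 9.51 and 9.34 in mutant atria, 8.58, 8.66 and 8.62 in control atria and 8.65, 8.02 and 8.05 in ventricles. All mutant arrays exceeded all control atria, and ventricle replicate 1 lay with the control atria. The difference between mutant and control atria was 0.64 ± 0.18, or 1.55-fold (adjusted p = 0.0409). Aif1, a calcium-binding protein of macrophages also called Iba1, read 8.10, 8.95 and 8.27 in mutant atria, 7.77, 7.21 and 7.62 in control atria and 7.35, 6.72 and 7.23 in ventricles. Mutant arrays again lay above every control atrium, while control atria and ventricles overlapped. It was 1.88-fold higher in mutants, by 0.91 ± 0.24 (adjusted p = 0.0314). Spi1, which encodes PU.1, differed by 0.31 ± 0.17 between mutant and control atria (adjusted p = 0.245) and by -0.03 ± 0.17 between ventricles and control atria (adjusted p = 0.883).

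Of these calls, that of Cd68 held without any 1 array. Csf1r did not pass without mutant replicate 2 (0.34), mutant replicate 3 (0.35), control replicate 1 (0.37) or control replicate 2 (0.39). Adgre1 did not pass without mutant replicate 2 (0.51) or 3 (0.59) or without any 1 of the control atria (0.61, 0.65 and 0.64). Aif1 did not pass without mutant replicate 2 (0.65) or 3 (0.99) or without control replicate 2 (0.75) or 3 (0.95).

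**Figure D2:**
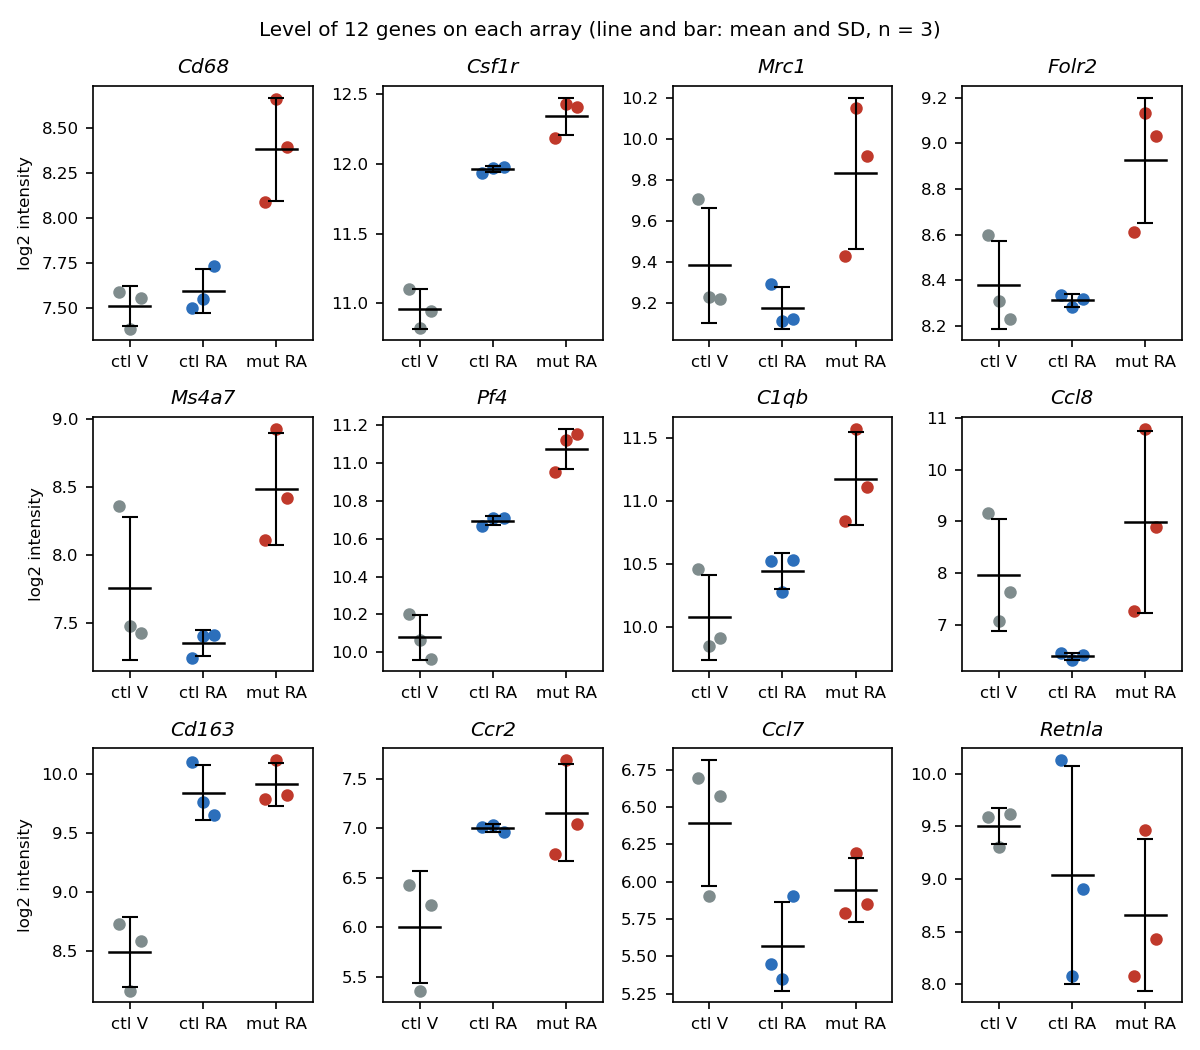
Log2 intensity of 12 genes on each array, with a panel per gene, the 3 groups on the x axis (ctl V, control ventricle; ctl RA, control right atrium; mut RA, mutant right atrium) and the mean and SD of 3 arrays as line and bar. The 3 mutant arrays lie above the 3 control atria for Cd68, Csf1r, Mrc1, Folr2, Ms4a7, Pf4, C1qb and Ccl8, and overlap them for Cd163, Ccr2, Ccl7 and Retnla.

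Among the 6 markers of resident macrophages, Mrc1, Folr2, Pf4 and Ms4a7 were higher in mutant than in control atria, and Cd163 and Cx3cr1 did not pass. Mrc1, the mannose receptor CD206, had levels of 9.43, 10.15 and 9.92 in mutant atria, 9.30, 9.11 and 9.12 in control atria and 9.71, 9.23 and 9.22 in ventricles. Every mutant array lay above the control atria, the lowest of them closely, and ventricle replicate 1 lay within the mutant range. The difference of mutant from control atria was 0.66 ± 0.19, or 1.58-fold (adjusted p = 0.0381), and that of mutant atria from ventricles 0.45 ± 0.19 (adjusted p = 0.092). Folr2, a folate receptor of resident macrophages, was at 8.61, 9.13 and 9.03 in mutant atria, 8.34, 8.28 and 8.32 in control atria and 8.60, 8.31 and 8.23 in ventricles. Mutant arrays were highest, and ventricle replicate 1 came next, just under mutant replicate 1. Folr2 was 1.53-fold higher in mutant than in control atria, by 0.61 ± 0.14 (adjusted p = 0.015).

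Pf4, a chemokine shared by platelets and tissue macrophages, was at 10.95, 11.12 and 11.15 in mutant atria, 10.67, 10.71 and 10.71 in control atria and 10.20, 10.07 and 9.97 in ventricles. The groups did not overlap and the replicates lay close together. The mutant difference from control atria was 0.38 ± 0.08, or 1.30-fold (adjusted p = 0.0115), and ventricles were lower than control atria by -0.62 ± 0.08 (adjusted p = 0.000197). Ms4a7, a membrane protein of tissue macrophages, was at 8.11, 8.93 and 8.42 in mutant atria, 7.24, 7.40 and 7.41 in control atria and 8.36, 7.48 and 7.42 in ventricles. Mutant atria lay above control atria on all arrays, and ventricle replicate 1 lay among the mutants. It was 2.20-fold higher in mutant than in control atria, by 1.14 ± 0.26 (adjusted p = 0.0164).

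Cd163, the scavenger receptor for haemoglobin bound to haptoglobin, separated atrium from ventricle instead. Its levels were 9.79, 10.13 and 9.82 in mutant atria, 10.11, 9.77 and 9.66 in control atria and 8.73, 8.16 and 8.59 in ventricles. Both kinds of atrium overlapped and all 6 atrial arrays lay above the ventricles. Mutant and control atria differed by 0.07 ± 0.17 (adjusted p = 0.802), and ventricles were lower than control atria by -1.35 ± 0.17 (adjusted p = 0.000137). The fractalkine receptor Cx3cr1, found on resident macrophages and on patrolling monocytes, was among the dimmest 40% of genes, at 6.46, 7.25 and 6.84 in mutant atria, 6.28, 6.61 and 6.40 in control atria and 6.54, 5.84 and 6.12 in ventricles. All groups overlapped, and the difference between mutant and control atria was 0.42 ± 0.21 (adjusted p = 0.206).

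Without single arrays the call of Pf4 held throughout. Mrc1 did not pass without mutant replicate 2 (0.50) or 3 (0.62) or without control replicate 1 (0.72), 2 (0.63) or 3 (0.63). Folr2 did not pass without mutant replicate 2 (0.51) or 3 (0.56) or without control replicate 2 (0.60). The call of Ms4a7 was lost when mutant replicate 2 (0.92) or control replicate 1 (1.08) was left out.

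Ccr2, the chemokine receptor that marks monocytes and the macrophages derived from them, was the only member of the list that marks recruited cells directly. Its levels were 6.74, 7.69 and 7.04 in mutant atria, 7.02, 7.03 and 6.96 in control atria and 6.43, 5.36 and 6.23 in ventricles. Mutant replicate 1 lay below the control atria and replicate 2 above them, and ventricles lay under all atria. Mutant and control atria differed by 0.16 ± 0.29 (adjusted p = 0.739). The lower ventricular level rests on the probe set used. Other probe sets of Ccr2 differed by -0.22, -0.39 and 0.24 between ventricles and control atria and did not pass on their own. The mean log2 level of the 6 resident markers, beside Ccr2, was 8.89, 9.45 and 9.20 in mutant atria, 8.65, 8.65 and 8.60 in control atria and 8.69, 8.18 and 8.26 in ventricles. Mutant replicate 2 was highest and mutant replicate 1 lowest of the mutants on both measures. Whether the resident markers and Ccr2 differ in their response was not tested.

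Of the 4 chemokines, Ccl8 was higher in mutant than in control atria and Ccl7 was higher in ventricles than in control atria. Ccl8, a chemokine of tissue macrophages, was at 7.27, 10.80 and 8.89 in mutant atria, 6.45, 6.32 and 6.40 in control atria and 9.17, 7.07 and 7.64 in ventricles. Control atria were uniformly low, and both other groups spread widely above them. The mutant difference from control atria, 2.60 ± 0.78 or 6.05-fold, was the largest of the 36 (adjusted p = 0.0476), and ventricles differed from control atria by 1.57 ± 0.78 (adjusted p = 0.114). Ccl8 did not pass without mutant replicate 2, which took its difference to 1.69, nor without mutant replicate 3 (2.65), any 1 control atrium (2.63, 2.56 and 2.60) or ventricle replicate 2 or 3 (2.60 for both). Its call was also lost with an intensity trend in the variance (adjusted p = 0.114), a replicate block (adjusted p = 0.0857), only the groups compared (adjusted p = 0.0622), quantile normalisation (adjusted p = 0.0541), the mean of probe sets (adjusted p = 0.0513) and every probe set tested on its own (adjusted p = 0.0503), with differences of 2.59 to 2.60. The hepatocyte covariate ended it as it did all others.

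Ccl2, the main ligand of Ccr2, was dim, at 6.15, 6.70 and 6.30 in mutant atria, 6.16, 6.20 and 6.34 in control atria and 6.67, 6.31 and 6.32 in ventricles. All groups overlapped, and mutant and control atria differed by 0.15 ± 0.15 (adjusted p = 0.505). Ccl7, a second ligand of Ccr2 and also dim, was at 5.79, 6.19 and 5.85 in mutant atria, 5.45, 5.35 and 5.91 in control atria and 6.70, 5.91 and 6.58 in ventricles. It was the member that was higher in ventricles than in control atria, 1.77-fold or by 0.83 ± 0.22 (adjusted p = 0.0107), although ventricle replicate 2 lay level with the highest control atrium. Ccl9 differed by 0.04 ± 0.25 between mutant and control atria (adjusted p = 0.932).

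C1q starts the classical complement pathway and tags dying cells for uptake, and its 3 chains are made largely by macrophages. C1qb was at 10.84, 11.57 and 11.11 in mutant atria, 10.52, 10.28 and 10.54 in control atria and 10.46, 9.85 and 9.92 in ventricles. C1qc was at 9.72, 10.32 and 9.995 in mutant atria, 9.40, 9.31 and 9.53 in control atria and 9.26, 8.83 and 8.78 in ventricles. Both had every mutant array above every other array. C1qb was 1.66-fold higher in mutant than in control atria, by 0.73 ± 0.20 (adjusted p = 0.0353), and all 3 of its probe sets passed. With an intensity trend in the variance C1qb did not pass (adjusted p = 0.0511). C1qc was 1.51-fold higher, by 0.60 ± 0.16 (adjusted p = 0.0342). The third chain, C1qa, differed by 0.58 ± 0.18, at 10.93, 11.69 and 11.21 against 10.73, 10.56 and 10.81, and lay just outside the threshold (adjusted p = 0.0511).

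Of 12 other complement genes, 0 were higher and 2 lower in mutant atria, with 0 and 2 at an unadjusted p under 0.05. C2 was lower by -1.05 ± 0.11 (adjusted p = 0.000299) and C1s1 by -0.35 ± 0.09 (adjusted p = 0.0275). C1s1 did not pass without control replicate 1 (-0.27) or any 1 mutant array (-0.35, -0.36 and -0.33). C2 is also made in liver, whose transcripts were high in control atria, and whether this bears on its difference was not tested. Without single arrays, C1qb did not pass when mutant replicate 2 (0.53) or 3 (0.76) or control replicate 1 (0.77), 2 (0.65) or 3 (0.77) was left out, nor C1qc when mutant replicate 2 (0.44) or 3 (0.60) or control replicate 1 (0.59) or 2 (0.55) was.

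Fc receptors bind antibody-coated particles and signal through ITAM adaptors, of which Fcer1g and Tyrobp are members of the list. Fcer1g, the common gamma chain, was at 9.40, 9.96 and 9.68 in mutant atria, 9.07, 8.93 and 9.11 in control atria and 9.01, 8.40 and 8.67 in ventricles. Tyrobp, or DAP12, was at 9.69, 10.05 and 9.74 in mutant atria, 9.40, 9.34 and 9.38 in control atria and 9.08, 8.55 and 8.90 in ventricles. Both adaptors were highest on the 3 mutant arrays. Fcer1g was 1.57-fold higher in mutant than in control atria, by 0.65 ± 0.17 (adjusted p = 0.0283), and Tyrobp 1.37-fold, by 0.45 ± 0.14 (adjusted p = 0.0472). The receptors themselves did not pass. Fcgr1, the high-affinity receptor, differed by 0.60 ± 0.27 (adjusted p = 0.164), the activating Fcgr3 by 0.36 ± 0.16 (adjusted p = 0.158) and the inhibitory Fcgr2b by 0.24 ± 0.16 (adjusted p = 0.326). Fcer1g lost its call without mutant replicate 2 (0.51) or 3 (0.65) or control replicate 1 (0.66) or 2 (0.59). Tyrobp did not pass without any 1 of the 6 atria, with differences of 0.34 to 0.52, nor without ventricle replicate 3 (0.45), with the Y-linked covariate (adjusted p = 0.0526) or with every probe set tested on its own (adjusted p = 0.0523).

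Of the 5 lysosomal and innate genes, Laptm5 passed. This lysosomal membrane protein of blood-derived cells was at 9.10, 9.45 and 9.14 in mutant atria, 8.78, 8.60 and 8.39 in control atria and 8.68, 8.17 and 8.29 in ventricles. Mutant arrays lay above all others, and control atria overlapped the ventricles. Laptm5 was 1.56-fold higher in mutant than in control atria, by 0.64 ± 0.15 (adjusted p = 0.0193), and lost its call without mutant replicate 2 (0.53) or control replicate 2 (0.64) or 3 (0.54). The cysteine protease Ctss differed by 0.53 ± 0.21 (adjusted p = 0.121) and the endotoxin co-receptor Cd14 by 0.18 ± 0.32 (adjusted p = 0.735). Lysozyme, which cleaves bacterial walls, is encoded by the near-identical Lyz1 and Lyz2. Lyz2 differed by 0.33 ± 0.19 (adjusted p = 0.268) and Lyz1 by 0.28 ± 0.18 (adjusted p = 0.33). The probe set used for Lyz1 may also bind Lyz2, and another probe set of Lyz1 read 3.93 to 4.51 on all arrays, so the value given for Lyz1 is uncertain.

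The 3 general leukocyte and antigen presentation genes did not pass between mutant and control atria, although 2 had an unadjusted p under 0.05. Cd74, the invariant chain of MHC class II, differed by 0.54 ± 0.17 (adjusted p = 0.0543), Coro1a, an actin-binding protein of leukocytes, by 0.48 ± 0.21 (adjusted p = 0.152), and Ptprc, the leukocyte antigen CD45, by 0.43 ± 0.25 (adjusted p = 0.262). In the list of other MHC class II genes and costimulators, 5 of 9 were higher and 0 lower, with 7 and 0 at an unadjusted p under 0.05. Among them were Cd83 (0.82 ± 0.16, adjusted p = 0.0078), the costimulator Cd86 (0.61 ± 0.12, adjusted p = 0.00772), H2-DMa (0.69 ± 0.17, adjusted p = 0.0217) and H2-Eb1 (0.65 ± 0.17, adjusted p = 0.0281). Calls were lost for H2-DMa without mutant replicate 1 (0.68) or 2 (0.50) or control replicate 2 (0.59), and for H2-Eb1 without mutant replicate 1 (0.67) or 2 (0.51) or control replicate 2 (0.53) or 3 (0.68).

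Of the 4 activation genes, Gpnmb passed. This membrane glycoprotein of lipid-laden macrophages was at 6.93, 7.09 and 7.27 in mutant atria, 6.57, 6.58 and 6.68 in control atria and 6.18, 6.13 and 6.29 in ventricles. The groups did not overlap. Gpnmb was 1.40-fold higher in mutant than in control atria, by 0.48 ± 0.09 (adjusted p = 0.00704), and held without any 1 array, but did not pass when its probe sets were averaged (0.18). Trem2, a lipid receptor that signals through Tyrobp, differed by 0.06 ± 0.11 (adjusted p = 0.716), and the fungal lectin receptor Clec4n by 0.93 ± 0.30 (adjusted p = 0.0627). Retnla, a secreted marker of alternative activation, was at 8.08, 9.47 and 8.42 in mutant atria, 10.13, 8.07 and 8.90 in control atria and 9.59, 9.31 and 9.61 in ventricles. Its levels scattered widely within both kinds of atrium, and it was the gene of the 36 whose mutant mean lay below that of control atria (-0.38 ± 0.48, adjusted p = 0.615).

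**Figure D3:**
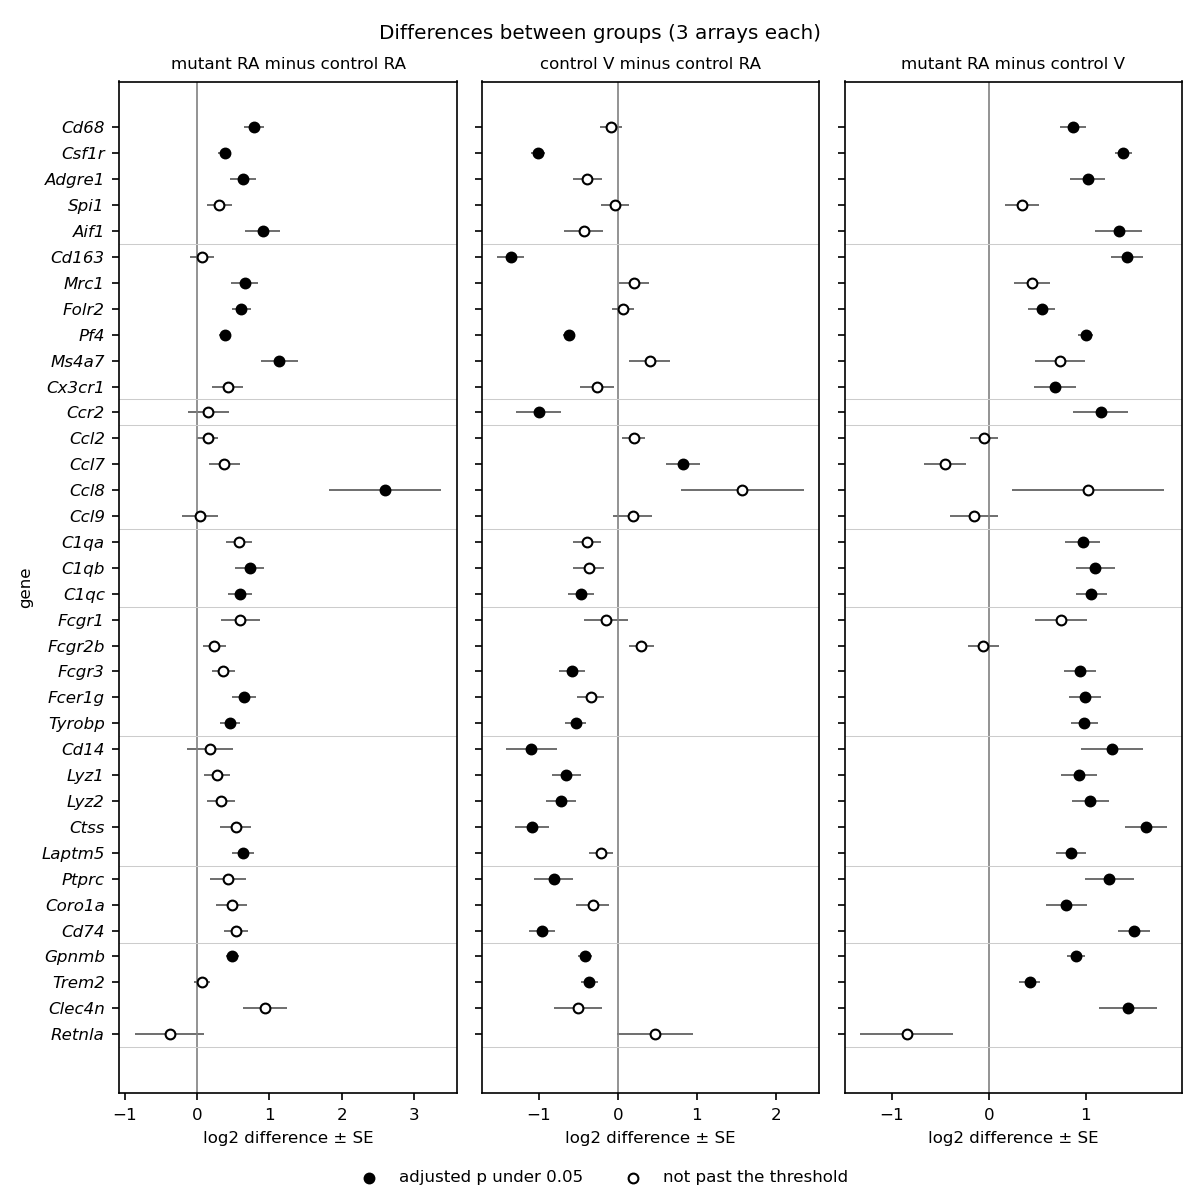
Log2 differences with SE for the 36 genes (rows) in the 3 comparisons (panels), each between groups of 3 arrays, with filled points past an adjusted p of 0.05. From left to right the panels hold 15 higher and 0 lower, 1 higher and 15 lower, and 26 higher and 0 lower genes.

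In hearts without Cre, 15 of the 36 genes were lower in the ventricle than in the right atrium, 1, Ccl7, was higher and 20 did not pass, where 23.6% of all genes were lower and 29.2% higher. The same counts were found at an unadjusted p under 0.05, where 4680 of all 18193 genes were lower and 6142 higher. The median difference of the members was -0.38, against 0.07 over all genes. Centring each array on its median moved the median of all genes to 0.21 and the share of higher among all calls from 55.3% to 74.1%, with 13 members lower and 2 higher.

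The lower genes included 1 of the 5 identity genes and 2 of the 6 resident markers. Apart from Cd163 (2.56-fold), Csf1r and Pf4, they included the cathepsin Ctss (-1.08 ± 0.21, adjusted p = 0.00249), Cd14 (-1.09 ± 0.32, adjusted p = 0.0178), Ccr2 (-0.996 ± 0.29, adjusted p = 0.0161) and Cd74 (-0.96 ± 0.17, adjusted p = 0.00118). Ptprc (-0.81 ± 0.25, adjusted p = 0.0221), Lyz2 (-0.72 ± 0.19, adjusted p = 0.0125), Lyz1 (-0.65 ± 0.18, adjusted p = 0.015) and Fcgr3 (-0.58 ± 0.16, adjusted p = 0.0153) followed. Smaller differences were those of Tyrobp (-0.53 ± 0.14, adjusted p = 0.00931), C1qc (-0.46 ± 0.16, adjusted p = 0.0384), Gpnmb (-0.41 ± 0.09, adjusted p = 0.00457) and Trem2 (-0.36 ± 0.11, adjusted p = 0.0208). These values are of the probe set used, and for genes such as Ccr2 and Csf1r not every probe set passed. The resident markers divided, with Cd163 and Pf4 lower and Mrc1, Folr2 and Ms4a7 at 0.21 ± 0.19, 0.07 ± 0.14 and 0.40 ± 0.26, none of which passed. Without ventricle replicate 2 or ventricle replicate 3, 10 genes were lower, and without ventricle replicate 1, 19. Of all genes, 21.2%, 21.5% and 21.1% were lower in these fits. C1qc did not pass without mutant replicate 3 (-0.46), without any 1 control atrium (-0.47, -0.51 and -0.40) or without ventricle replicate 2 (-0.40) or 3 (-0.37). Cd14 did not pass without control replicate 3 (-0.81) or ventricle replicate 2 (-1.04) or 3 (-1.03), Ptprc without control replicate 1 (-0.72) or ventricle replicate 2 (-0.53) or 3 (-0.80), Fcgr3 without ventricle replicate 2 (-0.46) or 3 (-0.51), Trem2 without control replicate 2 (-0.31) or ventricle replicate 2 (-0.26), and Lyz1 without ventricle replicate 3 (-0.59).

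This comparison carries the same excess of liver transcripts in control atria and a difference in Y-linked transcripts. With the Y-linked level as a covariate 5 members were lower and 2 higher, with a median of -0.18, where 19.6% of all genes were lower and 21.1% higher. With the hepatocyte level as a covariate 0 were lower and 0 higher by limma, with 4 and 0 at an unadjusted p under 0.05 and a median of -0.41. Of all genes, 3.24% were lower and 2.51% higher with that covariate. Without control replicates 1 and 2, which left 1 control atrium, the median was -0.44 and the median SE of a difference 0.29.

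Mutant atria exceeded the ventricle in most of the genes. Of the 36, 26 were higher and 0 lower, where 16.0% of all genes were higher and 16.7% lower. At an unadjusted p under 0.05, 29 members were higher and 0 lower, as were 3584 and 4305 of all 18193 genes. The median difference was 0.96, against -0.05 over all genes. The largest were those of Ctss (1.62 ± 0.21 or 3.07-fold, adjusted p = 0.0004), Cd74 (1.49 ± 0.17, adjusted p = 0.000141), Clec4n (1.43 ± 0.30, adjusted p = 0.00553), Cd163 (1.42 ± 0.17, adjusted p = 0.000182) and Csf1r (1.39 ± 0.09, adjusted p = 6.51e-06). Ccr2 was higher by 1.15 ± 0.29 (adjusted p = 0.0125). Its other probe sets, tested on their own, differed by 0.30, 0.43 and -0.17 and did not pass. All 3 C1q chains, all 5 lysosomal and innate genes and all 3 leukocyte genes passed, and 0 of the 4 chemokines did, also at an unadjusted p. Cx3cr1 did not pass without mutant replicate 2 (0.48) or 3 (0.69) or ventricle replicate 2 (0.52) or 3 (0.66), Coro1a without mutant replicate 2 (0.60) or ventricle replicate 2 (0.60), and Trem2 without mutant replicate 3 (0.34). Liver transcripts were low and varied little in both groups, so the hepatocyte covariate, with which 25 were higher, could hardly move this comparison. With the Y-linked covariate 19 were higher, as were 12.9% of all genes. Centring each array on its median took the median of all genes to -0.15 and the share of higher among all calls from 48.9% to 27.6%, with 26 members higher as before.

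Ordered by group means, 27 of the 36 genes were lowest in ventricle, intermediate in control atrium and highest in mutant atrium. Mrc1, Folr2, Ms4a7 and Ccl8 had control atria lowest and mutant atria highest, and Ccl2, Ccl7, Ccl9 and Fcgr2b had control atria lowest and ventricles highest. Neighbours in this order often did not differ beyond their spread. On the probe set used for each gene, all 3 comparisons passed in that order for 5 genes (Csf1r, Pf4, C1qc, Tyrobp and Gpnmb). Another 10, among them Cd163, Ccr2, Cd14, Ctss and Cd74, were lower in ventricles than in either atrium and did not pass between the atria. Cd68, Adgre1, Aif1, Folr2, C1qb, Fcer1g and Laptm5 were higher in mutant atria than in both other tissues, and ventricle and control atrium did not pass against each other. Since the comparisons share arrays, these patterns are descriptions of the same values.

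Beyond the members, a list of 14 further genes of resident macrophages held 6 that were higher and 1 that was lower in mutant than in control atria, with 8 and 1 at an unadjusted p under 0.05. The scavenger receptor Stab1 (0.62 ± 0.10, adjusted p = 0.00274), the lectins Cd209f (0.76 ± 0.12, adjusted p = 0.00254) and Clec10a (1.04 ± 0.23, adjusted p = 0.015) and the reductase Cbr2 (0.86 ± 0.18, adjusted p = 0.0118) were among the higher. Clec10a did not pass without control replicate 2 (0.94). In ventricles against control atria, 4 of the 14 were higher and 7 lower, where 29.2% of all genes were higher and 23.6% lower. Cd209f (0.48 ± 0.12), Clec10a (0.90 ± 0.23) and Cbr2 (0.50 ± 0.18) were higher there, and Stab1 was lower (-1.01 ± 0.10). Between mutant atria and ventricles Cd209f, Clec10a and Cbr2 did not pass, and Stab1 was higher in mutants (1.63 ± 0.10). Lyve1, the hyaluronan receptor of resident macrophages and of lymphatic endothelium, went the other way. It was at 9.98, 10.74 and 10.10 in mutant atria, 10.73, 11.06 and 11.24 in control atria and 9.19, 9.56 and 9.53 in ventricles, lower in mutant atria by -0.74 ± 0.20 (adjusted p = 0.0344). Mutant replicate 2 reached the control range, and Lyve1 lost its call without mutant replicate 1 (-0.59) or 3 (-0.66) or control replicate 2 (-0.72) or 3 (-0.63). Timd4, a phosphatidylserine receptor of long-lived resident macrophages, differed by 0.31 ± 0.15 between the atria (adjusted p = 0.176) and was lower in ventricles than in control atria by -1.60 ± 0.15 (adjusted p = 2.31e-05).

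On the side of recruited cells, a list of 9 monocyte genes held 5 that were higher and 1 that was lower in mutant than in control atria, with 6 and 1 at an unadjusted p under 0.05. Vcan, a proteoglycan of classical monocytes that stromal cells also make, was 1.39 ± 0.16 higher (adjusted p = 0.000508), at 9.72, 10.29 and 9.66 against 8.41, 8.42 and 8.67. Ms4a4c (0.27 ± 0.06, adjusted p = 0.0129) and the dim Ifitm6 (0.45 ± 0.11, adjusted p = 0.0197) were higher by less. So was Ms4a6c (0.47 ± 0.13, adjusted p = 0.034), named after its values were seen. Ms4a6c lost its call in 4 of the fits without 1 array. Hp, haptoglobin, was lower by -2.35 ± 0.28 (adjusted p = 0.00061). It stood at 8.71, 8.29 and 7.64 in control replicates 1, 2 and 3, in the same order as Alb, and its source was not tested. Leaving out mutant replicate 2 (0.42) or 3 (0.40) or control replicate 2 (0.41) ended the call of Ifitm6. F13a1, a coagulation factor subunit of monocytes and resident macrophages, is on this list and on that of resident genes above, is counted in both, and was chosen after its values were seen. It was higher in mutant than in control atria by 0.82 ± 0.21 (adjusted p = 0.0267). Its call was lost without mutant replicate 2 (0.61) or 3 (0.78) or any 1 control atrium (0.87, 0.77 and 0.82). In ventricles against control atria, 3 of the 9 were higher and 2 lower, where 29.2% of all genes were higher and 23.6% lower. The higher were Ms4a4c (0.402 ± 0.06), Ifitm6 (0.503 ± 0.11) and F13a1 (1.202 ± 0.21). Between mutant atria and ventricles these 3 did not pass (-0.14, -0.05 and -0.38). There 3 of the 9 were higher and 0 lower, among them Vcan (1.75 ± 0.16) and Ms4a6c (0.49 ± 0.13). Ms4a6c lost this call in 2 of the fits without 1 array. The summed intensity of the 9 genes, to which F13a1 contributes at 9.48 to 11.04, ran from 2843 to 4486 in mutants, from 2166 to 2476 in control atria and from 2636 to 3386 in ventricles.

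**Figure D4:**
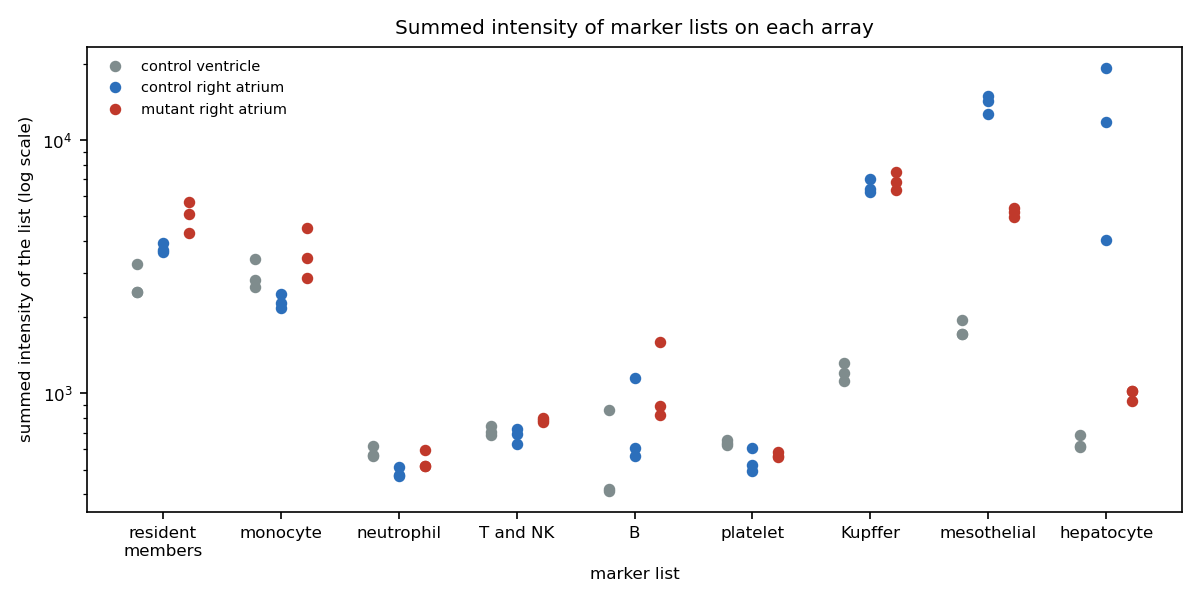
Summed intensity of marker lists (x axis) on each of the 9 arrays, on a logarithmic axis, with colours for the 3 groups. The Kupffer list shares Vsig4 and Timd4, and the monocyte list F13a1, with other resident genes. Hepatocyte genes sum to 4024 to 19277 in control atria and at most 1026 elsewhere, mesothelial genes are ordered control atrium, mutant atrium, ventricle, and the 6 resident members sum to 4312 to 5683 in mutant atria and 3612 to 3910 in control atria.

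Markers of other blood cells were mostly dim. All 11 neutrophil genes were among the dimmest 40%, with 0 higher and 0 lower between mutant and control atria by limma (3 and 0 at an unadjusted p under 0.05), and S100a8 differed by 0.14 ± 0.25 (adjusted p = 0.739). Of 8 B cell genes 0 passed, also at an unadjusted p, and Cd79a differed by 0.14 ± 0.11 (adjusted p = 0.407). Of 11 genes of T and NK cells 2 were higher and 0 lower (4 and 0 at an unadjusted p under 0.05), with Cd3e at 0.23 ± 0.08 (adjusted p = 0.0632), and of 9 dendritic cell genes 2 were higher and 0 lower (3 and 1 unadjusted). Platelet genes, which bear on Pf4, numbered 7, of which 0 passed and 1 had an unadjusted p under 0.05, and the integrin Itga2b differed by -0.04 ± 0.11 (adjusted p = 0.828). Their summed intensity ran from 559 to 586 in mutants, from 492 to 607 in control atria and from 625 to 655 in ventricles. Of 7 mast cell genes and 5 erythroid genes 0 passed, with 1 higher and with 1 higher and 1 lower at an unadjusted p under 0.05.

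Macrophages of other sites were set beside the liver and mesothelial transcripts of the control atria. Of 7 genes of Kupffer cells, the macrophages of the liver, 1 (Clec4f) was higher and 1 (Id3) lower in mutant than in control atria. Id3, a transcriptional regulator expressed in many cell types and named after its values were seen, was lower by -0.41 ± 0.10 (adjusted p = 0.023), and lost its call without mutant replicate 2 (-0.41) or 3 (-0.39) or control replicate 1 (-0.36) or 3 (-0.37). The summed intensity of the list ran from 6338 to 7494 in mutants, from 6263 to 7030 in control atria and from 1116 to 1320 in ventricles. This sum is not specific to Kupffer cells, since Vsig4 and Timd4 are also on the list of resident macrophages and Vsig4, Id3 and Cd207, the latter also named after its values were seen, were the bright members in atria. The defining lectin Clec4f was dim, at 5.60, 6.09 and 5.97 in control atria and 6.56, 6.32 and 6.27 in mutant atria (0.49 ± 0.14, adjusted p = 0.0367). It did not follow Alb over the control atria, and did not pass without any 1 of the 3 mutant arrays (0.40, 0.53 and 0.55), without control replicate 1 (0.35) or 3 (0.53) or without ventricle replicate 3 (0.49). Of 7 genes of macrophages of the serous cavities 0 were higher and 1 was lower, with 2 and 1 at an unadjusted p under 0.05. Gata6, their defining factor, which heart muscle also expresses, differed by -0.17 ± 0.09 (adjusted p = 0.2).

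The wider pathways of macrophage function were followed with 137 measured genes in 10 lists, of which 24 were higher and 8 lower in mutant than in control atria. These are 17.5% and 5.84%, against 7.76% and 9.79% of all genes. In ventricles against control atria 26 were higher and 48 lower (19.0% and 35.0%, against 29.2% and 23.6% of all genes). In mutant atria against ventricles 70 were higher and 6 lower (51.1% and 4.38%, against 16.0% and 16.7% of all genes). The growth factors that act on Csf1r did not pass between the atria, with Csf1 at -0.14 ± 0.13 (adjusted p = 0.479) and the dim Il34 at 0.21 ± 0.08 (adjusted p = 0.121). Csf1 was lower in ventricles than in control atria by -0.70 ± 0.13 (adjusted p = 0.00144). Of 12 myeloid transcription factors 3 were higher, namely Cebpb (0.95 ± 0.14, adjusted p = 0.00231), Mitf (0.43 ± 0.07, adjusted p = 0.00297) and Irf8 (0.53 ± 0.16, adjusted p = 0.045), and 1 was lower, Klf4 (-0.60 ± 0.13, adjusted p = 0.0142). Cebpb, Mitf and Klf4 are also expressed in cells other than macrophages. Klf4 did not pass without control replicate 1 (-0.57). The call of Irf8 was lost without mutant replicate 1 (0.49) or 2 (0.45), control replicate 2 (0.40) or 3 (0.51), or ventricle replicate 1 or 3 (0.53 for both).

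Of 17 genes of ITAM signalling 4 were higher and 1 lower, among them the actin regulator Was (0.68 ± 0.12, adjusted p = 0.00506) and the oxidase subunit Cyba (0.55 ± 0.11, adjusted p = 0.00792). Of 17 phagocytosis genes 5 were higher and 0 lower, with 9 and 0 at an unadjusted p under 0.05. Of 14 lysosomal genes 2 were higher and 0 lower, with 4 and 2 unadjusted. The called lysosomal genes were the acid lipase Lipa (0.79 ± 0.08, adjusted p = 0.000269) and the protease Ctsc (0.43 ± 0.07, adjusted p = 0.00416). Of 23 other chemokines and receptors 3 were higher and 0 lower, with 13 and 0 at an unadjusted p under 0.05. They were Cxcl9 (1.37 ± 0.33, adjusted p = 0.0199), Ccl5 (0.63 ± 0.19, adjusted p = 0.0483) and the dim receptor Cxcr6 (0.48 ± 0.14, adjusted p = 0.0452). Of 12 inflammatory genes 0 were higher and 1 lower, with 1 and 2 at an unadjusted p under 0.05. That gene was the dim cytokine Il6 (-0.77 ± 0.23, adjusted p = 0.0485). Its control atria had the order of Alb, at 6.15, 5.68 and 5.16, and the source of its transcripts was not tested. Il6 did not pass without any 1 array other than control replicate 3, with differences of -0.52 to -0.86. The call of Cxcl9 was lost without control replicate 1 (1.26) or 2 (1.14) or mutant replicate 2 (1.12), and that of Cxcr6 without any 1 atrial array (0.42 to 0.52) or ventricle replicate 3 (0.48). The call of Ccl5 held in turn only without mutant replicate 1 or control replicate 3, and its difference dropped to 0.39 without control replicate 2.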

How the data were processed

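The deposited values are intensities per probe set, which the authors summarised with RMA per the submitters' processing notes, its version being not given in the sources used here. They are on a linear scale, and their log2 was taken from the deposited intensities with no further normalisation. From the 45101 probe sets, 64 controls, 932 that name several genes and 9160 that name none were dropped. Array medians ran from 80.9 to 83.4. Precision is limited by the number of arrays.

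limma 3.58.1 in R 4.3.3 (lmFit, eBayes) fitted a mean per group to all 9 arrays and 18193 genes, with 6 residual and 3.48 prior degrees of freedom. Tests were 2-sided, and p-values were adjusted by Benjamini-Hochberg across the 18193 genes, with a threshold of 0.05. Dim means among the lowest 40% of genes by mean, below 6.58. The procedure was tested on simulated data. Members, lists and alternatives were chosen with earlier results of these data known. Every array value is given for members that passed between the atria. The same holds for 7 fixed members whatever their result (Ccr2, Cx3cr1, Mrc1, Folr2, Cd163, Ccl2 and Retnla, of which Mrc1 and Folr2 also passed). At most 4 genes of smallest p per list are named, besides 11 fixed genes and Ms4a6c. P-values measure the spread between samples that the labels call biological replicates. Python 3.11.15 and matplotlib 3.10.9 drew the figures.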

Additional observations from a re-analysis of the deposited data

How the results depend on the processing

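Between mutant and control atria, the number of members higher was 7 with a replicate block and 2 at an adjusted p of 0.01. It was 0 with the hepatocyte covariate and 3 to 17 with 1 array left out. The fit without control replicates 1 and 2 was chosen after seeing the data. It leaves 1 control atrium, so only its medians, signs and SE are given above. The hepatocyte covariate widened the SE. Of all genes, 6.47% were higher with the block, 2.89% at an adjusted p of 0.01 and 0.214% with the hepatocyte covariate. In ventricles against control atria, the lower members numbered 5 with the Y-linked covariate, 7 at an adjusted p of 0.01 and 0 with the hepatocyte covariate. They numbered 10 to 19 with 1 array left out and 14 with the block. The higher members, 1 in the report, numbered 2 with the Y-linked covariate, with median centring and with only the groups compared. They numbered 0 with the hepatocyte covariate, at an adjusted p of 0.01 and without the dimmest 40% of genes (Ccl7 is dim). With 1 array left out they numbered 1 to 2. In mutant atria against ventricles the higher members numbered 24 to 29 and the lower 0 to 1 with 1 array left out, and 25 with the block. Same-numbered arrays of different groups did not pair: of 9 pairs, 1 had a correlation of deviations over 0.1, in a range of -0.102 to 0.125. Over 2475 recomputed member values, 0 called values changed sign. With the hepatocyte covariate Cxcl9 turned to -0.039 between the atria and -0.31 in ventricles, and Il6 to 0.62 and 0.13. The cause was not tested. The median SE of a member difference was then 0.50 between the atria and 0.53 between ventricles and control atria. The hepatocyte level mainly sets control atria apart from the other groups, so these signs are poorly determined. Signal over background limits Cx3cr1, Ccl2 and Ccl7.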

Other observations

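A few genes of the macrophage and chemokine lists set atrium and ventricle apart far more than any of the 36. Vsig4, a complement receptor of resident macrophages, was at 11.43, 11.56 and 11.81 in mutant atria, 11.45, 11.31 and 11.11 in control atria and 6.44, 6.65 and 6.72 in ventricles. Ventricles were lower than control atria by -4.68 ± 0.12 (adjusted p = 2.59e-08), and the atria differed by 0.31 ± 0.12 (adjusted p = 0.115). Cd207, the lectin langerin, and Cxcl13, a chemokine for B cells, were chosen after their values were seen. Cd207 was lower in ventricles than in control atria by -4.82 ± 0.12 (adjusted p = 2.22e-08) and differed by 0.22 ± 0.12 between the atria (adjusted p = 0.23). Cxcl13 was lower in ventricles by -4.32 ± 0.19 (adjusted p = 2.53e-07) and differed by 0.50 ± 0.19 between the atria (adjusted p = 0.099). All 3 were high in the mutant atria, where Alb was at 4.68 to 5.22, against 12.25, 10.81 and 8.73 in control atria. The source of the 3 transcripts was not tested.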
